A study of Mus musculus with 208 samples.

Results

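Complement components were followed across the left ventricles (LV) of inbred mouse strains, without treatment and after chronic isoproterenol (ISO). They were chosen by gene symbol: C1qa, C1qb and C1qc, which encode the A, B and C chains of C1q, C2, C3, C4b, Cfb (factor B), Cfp (properdin) and C3ar1 (the receptor of the C3a fragment). Of these 9 genes the annotation of the array named 7, each through 1 probe, among 25697 gene probes in all. No probe of C3 was named, and C3 was not analysed here. A probe of Cfp was identified only by an older symbol in the study's list of probes that changed, so its change was known when it was found, and its values are given apart from the 7 as a description with no test.

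The panel was the Hybrid Mouse Diversity Panel (HMDP), which holds classical inbred strains and recombinant inbred (RI) strains, the latter derived by inbreeding the offspring of a cross of classical strains. The labels give female mice, an age of 10 weeks and, as the agent, either untreated (control) or Isoproterenol, started at 8 to 9 weeks of age and given for 3 weeks at 30 µg per g of body weight per day, whereas the design text of the series gives a lower dose, and the ages and duration in the labels do not add up. ISO is an agonist of β-adrenergic receptors that was delivered by implanted minipump, and controls are labeled only as untreated, so pump implantation is not described for them. RNA of pooled mice was measured on 208 Illumina arrays of 99 strains (93 strains in each condition), where the brightness of a bead-bound probe measures its transcript, and 87 strains (27 classical and 60 RI) had both conditions. All mice were female, and each strain and condition was a pool, so the spread between single mice was not seen.

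Complement is a cascade of plasma proteins that coats cells and debris and recruits leukocytes. In the classical pathway C1q binds its target, after which C4 and C2 are cleaved and together form the enzyme that cleaves C3. In the alternative pathway factor B forms the corresponding enzyme, which properdin stabilizes, and the C3a fragment acts on C3ar1. The liver makes most circulating components, while in tissues macrophages are a main source of C1q and can also make properdin.

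Among the arrays 28.9% to 50.3% of the probes were detected, a probe counting as detected where its detection p-value was under 0.05. Cardiomyocyte markers such as Myl2 and Actc1 were detected on every array. Each array was set against all arrays of the other condition over the 500 probes that varied most between strains. On BeadChips (slides of 8 arrays) 19 and 24, which hold both conditions of each of their strains, 0 of 16 arrays were closest to their own strain, against 121 of 168 on the 21 other slides of that kind, so the strain labels of BeadChips 19 and 24 are in doubt. The lowest of those 21 were BeadChip 6 with 1 of 8 arrays and BeadChip 21 with 3 of 8, and both were kept throughout. On BeadChips 12, 23 and 25 the count was 0 of 12, but there the other condition lay on other slides, so label and slide cannot be told apart. BeadChips 12, 19, 23 and 24 are the doubtful slides below, and the calls are also given without BeadChips 19 and 24 alone and with BeadChip 25 left out too. Low connectivity was found for 5 arrays, that is, a low summed similarity to the other arrays of their condition. They were control arrays of AXB-4/PgnJ, AXB-6/PgnJ and BXD69/RwwJ (the last on BeadChip 23) and ISO arrays of AXB-19/PgnJ and NOD/LtJ. On a BeadChip the positions A, C, E and G held 99 control and 5 ISO arrays and the other positions 7 and 97, so position and treatment cannot be told apart.

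The genes of the 3 C1q chains lie next to each other on chromosome 4, and those of C4b, Cfb and C2 lie together on chromosome 17 with 5 other coding genes between them. Promoters from RefSeq, running from 250 bases before to 50 after the start site on GRCm38.p6, were at hand for 5 of the 9 genes (C1qb, C1qc, C3, Cfp and C3ar1). Those of C1qb and C1qc are shown because their transcripts moved together in the results below. They are written 5′ to 3′ on the strand of the gene, and capitals mark ACTTCCT, the reverse complement of AGGAAGT, a form of the sequence bound by PU.1, a transcription factor of myeloid cells.
C1qb (chr4:136886151-136886450, minus strand): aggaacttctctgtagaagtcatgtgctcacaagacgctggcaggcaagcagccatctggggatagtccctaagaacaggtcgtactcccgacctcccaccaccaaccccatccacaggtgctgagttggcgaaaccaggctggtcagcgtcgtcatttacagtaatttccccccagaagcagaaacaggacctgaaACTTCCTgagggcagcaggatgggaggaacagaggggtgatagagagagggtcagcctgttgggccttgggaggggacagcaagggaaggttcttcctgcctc
C1qc (chr4:136892865-136893164, minus strand): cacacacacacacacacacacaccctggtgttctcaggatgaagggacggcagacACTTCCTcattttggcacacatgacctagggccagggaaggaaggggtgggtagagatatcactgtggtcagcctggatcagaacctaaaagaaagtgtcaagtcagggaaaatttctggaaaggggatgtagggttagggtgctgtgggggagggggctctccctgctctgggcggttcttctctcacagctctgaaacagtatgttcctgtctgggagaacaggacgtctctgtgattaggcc
AGGAAGT was searched on both strands after the sequences had been read. It was found 1 time in each of these promoters, beginning at position -53 from the start site in C1qb and at -195 in C1qc, and 0 times in those of Cfp and C3ar1. Of 32851 promoters of the same length, 9.35% held it. Neither promoter held TATAAA, the TATA box, which 13.6% of the promoters held, nor GAAANNGAAA, a sequence bound by interferon regulatory factors, which 3.44% held. A match is a description of the letters and not a binding site.

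ISO was compared with control over the 87 strains that had both, with limma on the difference of each strain and Benjamini-Hochberg adjustment over all probes. To be called, a probe had to have an adjusted p-value below 0.05 and to differ by more than 0.2 on the log2 scale (14.9%) in either direction. Of the 7 probes 3 rose and 0 fell, where 3.72% of all probes rose and 3.53% fell. The 3 that rose were the chains of C1q, by 15.9% to 29.6%. The log2 fold changes of C2 and C4b were 0.24 and 0.23 and did not pass the test, and Cfb and C3ar1 were near the background of the array. The median log2 fold change was 0.23 over the 7 probes and -0.0021 over all probes. Of the 7 probes 5 had an unadjusted p-value under 0.05, as had 6454 of all probes. In bulk tissue, more cells of a type cannot be told apart from more RNA per cell.

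**Figure D1:**
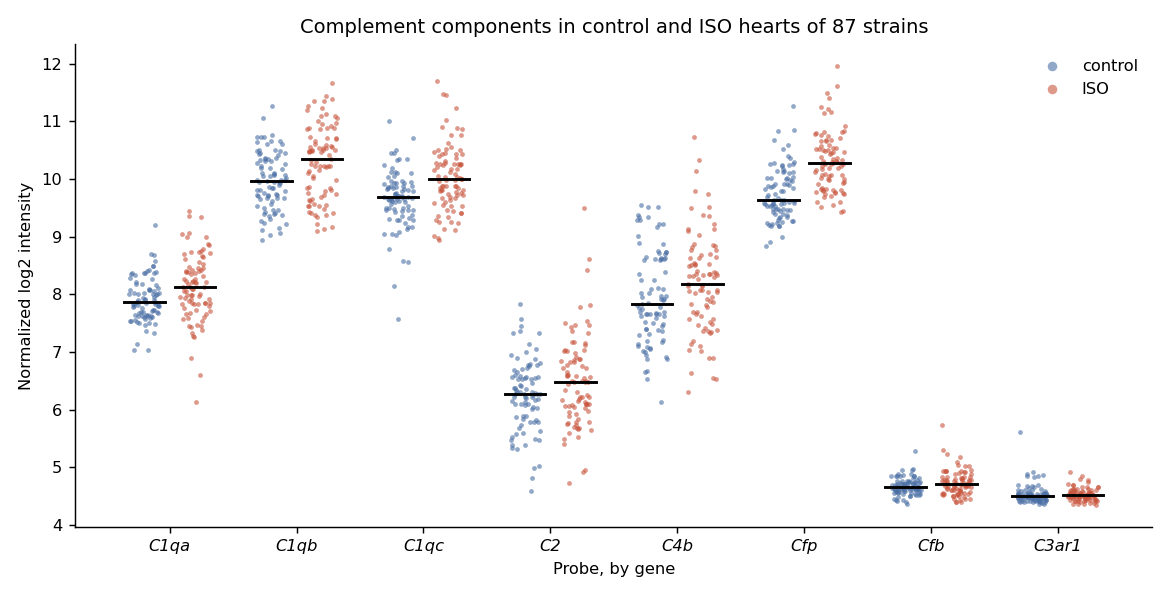
Normalized log2 intensity (y axis) of each complement probe (x axis) in the control (blue) and ISO (red) hearts of 87 strains, each point being a strain and each bar the median. The C1q chains lie higher in ISO hearts with wide overlap, and Cfb and C3ar1 lie between 4 and 6, where few arrays detected them. Levels of different probes are not comparable.

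C1qc encodes the C chain of C1q. Its log2 intensity had a lowest, median and highest value of 7.57, 9.69 and 11.01 in control hearts and of 8.94, 9.99 and 11.70 in ISO hearts. The groups overlapped over most of their range, and 5 ISO strains lay above the highest control. The rise was 29.6%, or 0.37 on the log2 scale (SE 0.06, limma adjusted p-value = 1.03e-06, n = 87), and was higher with ISO in 65 of 87 strains.

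C1qb, the B chain, had log2 intensities of 8.95, 9.96 and 11.26 in control hearts and 9.10, 10.35 and 11.67 in ISO hearts (lowest, median and highest). The groups overlapped over most of their range here too, and 6 ISO strains lay above the highest control. The rise was 25.4% (log2 fold change 0.33, SE 0.06, adjusted p-value = 6.44e-06), with a higher value in 61 of 87 strains. The SD over strains was 0.50 in control and 0.64 in ISO hearts.

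C1qa, the A chain, gave 7.04, 7.86 and 9.20 in control hearts and 6.12, 8.12 and 9.44 in ISO hearts. The ISO values of 3 strains, NOD/LtJ, BXD-39/TyJ and BALB/cJ, lay under every control, and 3 others lay above the highest one. Of the 2 ISO arrays of NOD/LtJ, 1 had low connectivity and the other is on BeadChip 23, a doubtful slide. C1qa rose by 15.9%, a log2 difference of 0.21 (SE 0.07, adjusted p-value = 0.0164), close to the fold threshold, and was higher in 55 of 87 strains. The call ended without background correction (log2 fold change 0.16), in the unpaired fit of the same strains (adjusted p-value = 0.0529), and when any of AXB-10/PgnJ, BXA-8/PgnJ, C3H/HeJ, CXB-11/HiAJ or NON/LtJ was left out (0.198 without AXB-10/PgnJ, under the fold threshold). C1qa also did not pass in classical (0.25, adjusted p-value = 0.335) or RI strains alone (0.20, adjusted p-value = 0.101). The calls of C1qb and C1qc held in each of the 87 fits that left out 1 strain.

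The extreme differences of the C1q chains lay only partly in the same strains. NON/LtJ was among the 3 highest differences of each chain (1.39 for C1qa and 1.53 for C1qb), and AXB-10/PgnJ was among those of C1qa and C1qc (1.51 and 1.59). The highest difference of C1qc, 1.68, was that of AXB-4/PgnJ, where the control array of low connectivity gave the lowest control level of the panel. C1qa differed by -0.18 in that strain. BXH-6/TyJ was among the 3 lowest of each (-0.94, -1.11 and -1.16). Its control hearts held the highest level of each chain among the 87 strains (9.20, 11.26 and 11.01), and both of its arrays are on BeadChip 24. NOD/LtJ had the lowest difference of C1qa (-1.88) and C1qc (-1.23) but was not among the 3 lowest of C1qb.

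C2, the protease that joins C4 in the classical pathway enzyme, had log2 intensities of 4.59, 6.26 and 7.84 in control hearts and 4.73, 6.48 and 9.50 in ISO hearts. The groups overlapped almost wholly, apart from 3 ISO strains above the highest control. The log2 fold change was 0.24 (SE 0.11, adjusted p-value = 0.138), with higher values in 49 of 87 strains, which did not pass the test. The differences ran from -2.27 in BXH-9/TyJ to 4.51 in BXH-19/TyJ, where C2 went from 4.99, the third lowest control of the panel, to 9.50, its highest ISO value. BXH-9/TyJ and the next lowest, BXH-6/TyJ (-1.80), are on BeadChip 24, whose strain labels are in doubt. Without BXH-19/TyJ the log2 fold change was 0.19 (adjusted p-value = 0.217).

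C4b, the mouse gene of complement C4, spread over 6.14, 7.83 and 9.54 in control hearts and 6.31, 8.17 and 10.72 in ISO hearts. Both groups thus covered more than 3 log2 units and overlapped almost wholly, with 5 ISO strains above the highest control. The log2 fold change was 0.23 (SE 0.13, adjusted p-value = 0.241), higher in 55 of 87 strains. In 20 strains C4b was higher with ISO by over 1 log2 unit, and in 12 it was lower by as much, against 8 to 10 and 1 to 3 strains for the C1q chains. The differences ran from -2.37 in BXD-5/TyJ to 3.48 in BXH-19/TyJ. The 3 lowest were those of BXD-5/TyJ, CXB-6/ByJ (-2.36) and BXH-6/TyJ (-2.14), on BeadChips 24, 19 and 24, whose strain labels are in doubt. C4a, a near-identical copy of C4b, has a probe that was detected on 0.481% of the arrays, and whether the C4b probe tells the copies apart was not tested.

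Without BeadChips 12, 19, 23 and 24 (80 strains) 5 of the 7 probes rose, since C2 (log2 fold change 0.31, adjusted p-value = 0.0388) and C4b (0.39, adjusted p-value = 0.021) then passed as well. Without the arrays of low connectivity (84 strains) the 3 C1q chains passed and C2 (adjusted p-value = 0.197) and C4b (0.163) did not. Without both sets of arrays (76 strains) 4 probes rose, C2 being the one that no longer did (0.27, adjusted p-value = 0.0575). Without BeadChips 19 and 24 alone (80 strains) 4 rose, C4b (0.35, adjusted p-value = 0.0369) but not C2 (0.26, adjusted p-value = 0.0752), and with BeadChip 25 left out as well as the 4 slides 5 rose. The calls of C2 and C4b thus depended on which slides were kept.

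Factor B was near background. Its probe was detected on 0.943% of control and 3.92% of ISO arrays, and its log2 intensity was 4.37, 4.65 and 5.27 in control hearts and 4.39, 4.70 and 5.73 in ISO hearts. The difference was 0.06 (SE 0.03, adjusted p-value = 0.188). C3ar1 was detected on 0.943% of control arrays and on 0% of ISO arrays, with medians of 4.49 and 4.51 and a difference of -0.0036 (SE 0.02, adjusted p-value = 0.942). A change of either transcript was not detectable where so few arrays rose above background.

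Properdin, the probe known from the list of changed probes, had log2 intensities of 8.83, 9.64 and 11.27 in control hearts and 9.43, 10.28 and 11.96 in ISO hearts. Even its lowest ISO strain lay above the lower controls, while the upper ranges overlapped. Its mean difference was 0.55 (SE 0.07, n = 87), a 46.5% higher level, with higher values in 75 of 87 strains. AXB-19/PgnJ, with an ISO array of low connectivity, had the highest difference (2.38), followed by BXH-19/TyJ (2.25), and BXD-5/TyJ on BeadChip 24 had the lowest (-1.28).

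**Figure D2:**
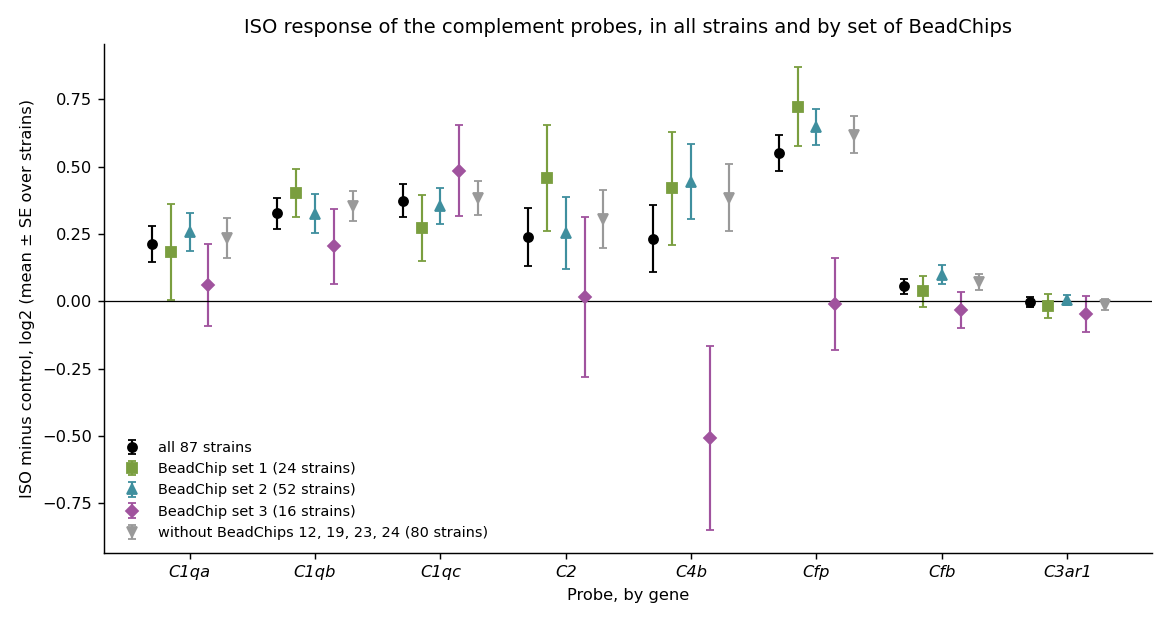
Mean difference between ISO and control hearts (log2, y axis, ± SE over strains) of each complement probe (x axis), in all strains, in each set of BeadChips and without BeadChips 12, 19, 23 and 24. C1qb and C1qc are above 0 in every set, whereas C4b is 0.42 and 0.44 in the first sets and -0.51 in the third.

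The 26 BeadChips fall by slide number into sets of 6, 14 and 6, with 24, 52 and 16 strains of both conditions, some in more than 1 set. C1qb differed by 0.40, 0.33 and 0.21 in sets 1, 2 and 3 and passed in the first 2, and C1qc by 0.27, 0.35 and 0.49 and passed in set 2. C1qa differed by 0.18, 0.26 and 0.06 and passed in set 2. C2 differed by 0.46, 0.26 and 0.02 and passed in none.

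C4b differed most between the sets, with 0.42 (adjusted p-value = 0.344) in set 1, 0.44 (0.0175) in set 2, where it passed, and -0.51 (0.499) in set 3. Without BeadChip 24, a setting added after seeing the data, the value in set 3 was -0.24 (SE 0.40, 12 strains). The mean difference of Cfp was 0.72, 0.65 and -0.0099 in the 3 sets. Whether the sets differ from each other was not tested.

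The ISO response was next compared between the 27 classical and the 60 RI strains. Of all probes 0 (0% of 25697) were called by limma, with 1051 at an unadjusted p-value under 0.05, and of the complement probes 0 were called and 0 had an unadjusted p-value under 0.05. C1qb differed by 0.38 ± 0.46 (SD) in classical and 0.30 ± 0.58 in RI strains, and the difference between them had a 95% confidence interval of -0.18 to 0.32. For C1qc the means were 0.38 and 0.37 (interval of the difference -0.26 to 0.27), and for C4b 0.34 and 0.18 (-0.39 to 0.70). The SD of the responses of C2 was 0.61 in classical and 1.16 in RI strains, and that of C4b was 0.76 and 1.34. Whether these spreads differ was not tested. The RI strains include BXD-5/TyJ, BXH-6/TyJ, BXH-9/TyJ and CXB-6/ByJ on BeadChips 24 and 19, and the classical strains DBA/2J and KK/HlJ have arrays on BeadChip 19.

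Across 6 families (classical, AXB and BXA, BXD/TyJ, BXD/RwwJ, BXH and CXB), the moderated F test of limma called 0 probes (0%) for the response, with 2240 at an unadjusted p-value under 0.05, 0 of them complement probes. The mean response of C1qb ran from 0.47 in AXB and BXA (higher in 14 of 16 strains) to -0.18 in the 4 BXH strains. Of these, BXH-6/TyJ (-1.11) and BXH-9/TyJ (-0.53) are on BeadChip 24, whose strain labels are in doubt. BXH-19/TyJ (0.68) and BXHB2 (0.26) are on other slides. C4b was on average 0.62 higher in the 22 BXD/RwwJ strains (higher in 17) and -0.32 in the 11 BXD/TyJ strains (higher in 5), and the test did not separate the families (adjusted p-value = 0.762). Among the BXD/TyJ strains, BXD-5/TyJ (-2.37) and BXD-20/TyJ are on BeadChip 24 as well.

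The control level of 253 probes (0.985%) differed between the families. No complement probe was among them, the lowest adjusted p-value being that of C1qa (0.173), whose control means ran from 7.80 in AXB and BXA to 8.27 in BXH. Here too the BXH strains include BXH-6/TyJ and BXH-9/TyJ of BeadChip 24. With median scaling in place of quantile normalization C1qa was called (adjusted p-value = 0.0451), but there 11286 probes were.

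The control and ISO levels of a strain were set against each other. The level of C1qb in a strain without ISO went with its level under ISO (Pearson r = 0.56, Spearman rho = 0.58, n = 87 strains), as did that of C1qc (r = 0.44, rho = 0.48), with r = 0.20 and rho = 0.26 for C1qa. The values were r = -0.04 and rho = 0.0063 for C2 and r = -0.0096 and rho = -0.0096 for C4b. Whether these correlations differ from each other was not tested. These correlations describe pools of the same strain, and each strain had at least 1 pair of both conditions on the same slide. Over the 76 strains left without the doubtful slides and arrays they were 0.62 for C1qb, 0.55 for C1qc, 0.26 for C1qa, 0.045 for C2 and 0.145 for C4b.

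**Figure D3:**
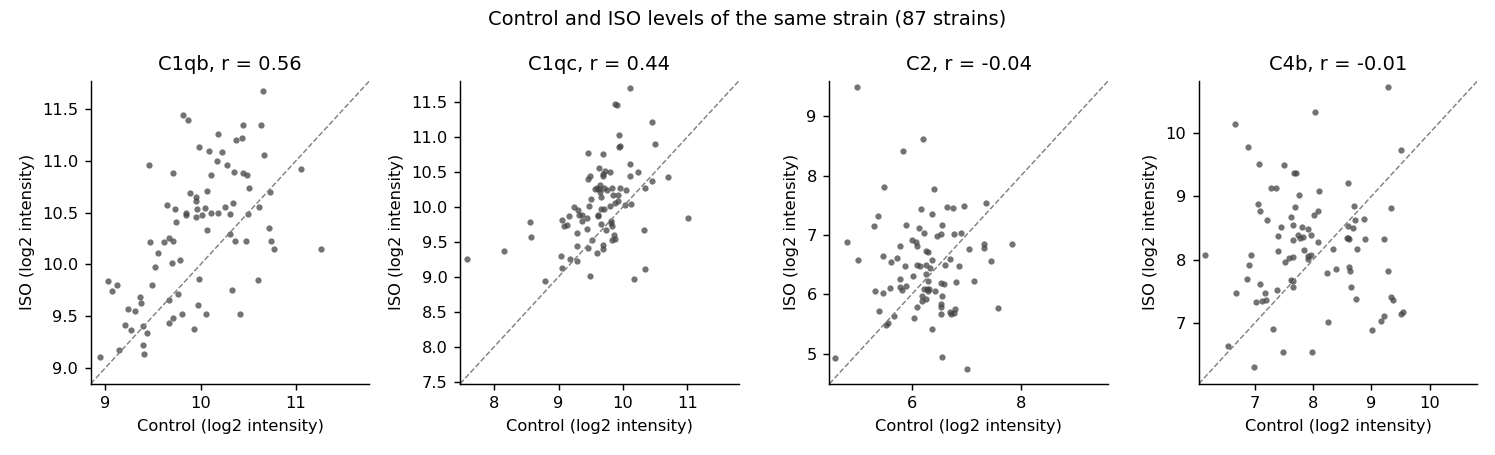
ISO level (y axis) against control level (x axis), both as log2 intensity, of C1qb, C1qc, C2 and C4b, each point being 1 of 87 strains and the dashed line marking equal levels. The ISO levels of C1qb and C1qc rise with the control levels (r of 0.56 and 0.44), and C2 and C4b form clouds with r of -0.04 and -0.01.

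In 22 cases a strain and condition had repeat arrays, which show how far arrays with the same label lie apart. In each case the repeats lay on BeadChips of different sets. Their spread thus also holds any shift between sets, which cannot be told apart from the spread of repeats within a set. The pooled SD of such repeats was 0.37 for C1qc, against an SD between strains of 0.51 in control hearts, 0.59 for C1qb against 0.50, and 0.55 for C1qa against 0.38. For C4b it was 0.89 against 0.81 and for C2 0.89 against 0.62. Without the doubtful slides, 10 cases gave 0.32 for C1qc, 0.37 for C1qb, 0.465 for C1qa, 0.83 for C4b and 0.79 for C2. The SD of repeats was thus higher than that between control strains for C2, C4b, C1qa and, with all slides, C1qb, and lower for C1qc. The repeats pool both conditions, and the SD between strains was higher in ISO hearts. There it was 0.57 for C1qc, 0.64 for C1qb, 0.58 for C1qa, 0.86 for C4b and 0.79 for C2. With all slides, the SD of repeats was above these values for C2 and C4b and below them for the C1q chains. Without the doubtful slides it was below that of C4b too, but the SDs between strains still include those slides.

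The differences of the C1q chains went together across the 87 strains, with r of 0.80 for C1qa and C1qb, 0.72 for C1qa and C1qc and 0.79 for C1qb and C1qc (rho = 0.82, 0.70 and 0.83). The differences of C2 and C4b formed a second pair (r = 0.70, rho = 0.74, and r = 0.66 without BXH-19/TyJ and BXH-9/TyJ). C4b had r of 0.64 with Cfp, 0.48 with C1qa, 0.38 with C1qb and 0.18 with C1qc, and over the 76 strains without the doubtful slides and arrays of low connectivity 0.62, 0.52, 0.43 and 0.325. The probes share their arrays, so these correlations describe the panel and carry no test.

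**Figure D4:**
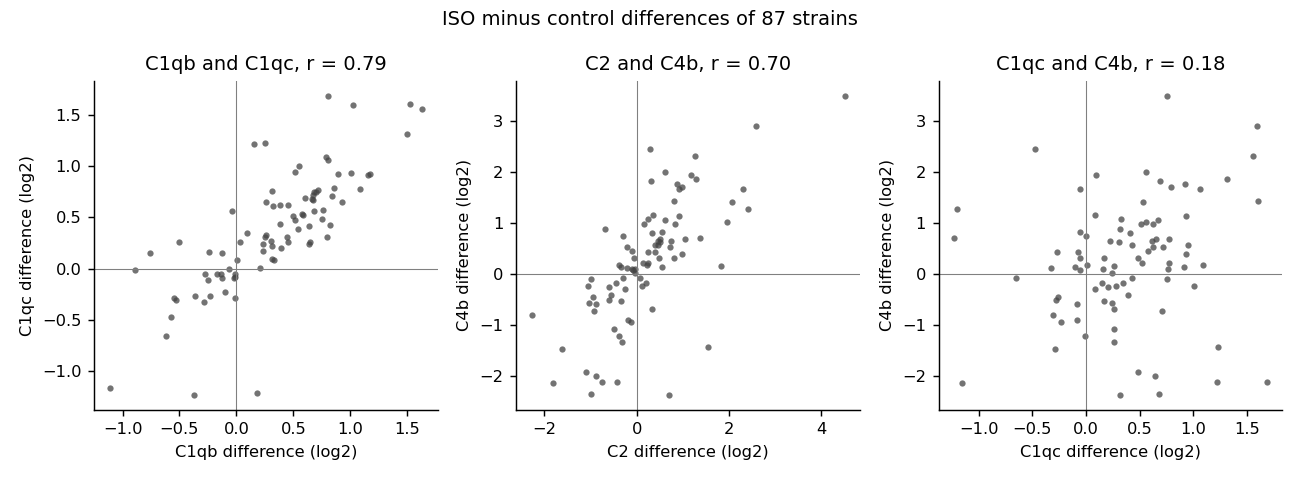
Difference between ISO and control hearts (log2) of 1 probe against that of another in 87 strains, each point being a strain. C1qb and C1qc (r = 0.79) and C2 and C4b (r = 0.70) lie along a diagonal, and C1qc and C4b (r = 0.18) scatter.

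The genes most similar to each component were sought among 16586 with 1 symbol. The difference of C1qb was most like that of Cd14, a coreceptor for bacterial lipopolysaccharide on macrophages (r = 0.77), followed by Sh3bgrl3 (0.74) and Ly86 (0.74), which encodes a partner of a Toll-like receptor homolog. C1qc was most like Prelid1 (0.80), Vkorc1 (0.77) and Ifitm2 (0.76), and C1qa was most like Pcolce, an enhancer of procollagen processing (0.77), Sh3bgrl3 (0.75) and Unc93b1 (0.74), which carries Toll-like receptors to endosomes. In control hearts the level of C1qc was most like that of Prelid1 (0.81) and Lyz2, the lysozyme of macrophages (0.81), and that of C1qb was most like Cd52 (0.67).

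C4b had other neighbors, namely Aebp1 (r = 0.77), Ecm1, an extracellular matrix protein (0.77), and Serpinf1, a secreted serpin (0.75), and in control hearts its level went with Cyp4v3 (0.71) and Apoe, an apolipoprotein (0.69). The difference of C2 was most like that of Igf1, a growth factor (0.65), Upk3b, a uroplakin of mesothelium (0.65), and Nnmt (0.63). The difference of Cfb, at background level, was most like that of Fgg, a fibrinogen chain of the liver (0.51), with Cyp3a25 (0.48) and Serpind1, heparin cofactor II (0.48).

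Markers of other cells moved with ISO as well. Of 17 measured macrophage markers 11 rose and 0 fell (median log2 fold change 0.41), where 3.72% of all probes rose and 3.53% fell. Among the 11 were Ms4a7 (0.98), Lyz2 (0.82) and Adgre1, which encodes F4/80 (0.42). The other 6 macrophage markers did not pass, among them Cd163 (-0.0030), Cx3cr1 (-0.11) and Aif1 (0.14). The mean of the macrophage list ran from 6.26 to 8.56 in control hearts and from 6.64 to 8.82 in ISO hearts. Of 14 fibroblast markers 8 rose (median 0.37), of 7 neutrophil markers 3 rose, and 0 of 9 mesothelial, 9 cardiomyocyte, 8 endothelial, 6 lymphocyte, 8 hepatocyte and 6 adipocyte markers passed in either direction.

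Across strains the difference of the macrophage markers went with that of C1qb (r = 0.75, rho = 0.78), C1qa (0.63, rho = 0.71), C1qc (0.58, rho = 0.69) and Cfp (0.63, rho = 0.68), with lower r for C4b (0.48) and C2 (0.395). Over the 76 strains without doubtful slides and arrays these r were 0.85, 0.77, 0.75, 0.60, 0.50 and 0.42. The fibroblast markers had r of 0.61 with C1qb, 0.59 with C1qc and 0.46 with C1qa. The cardiomyocyte markers had r of -0.67 with Cfp (rho = -0.69), -0.40 with C1qb (rho = -0.53) and -0.39 with C4b (rho = -0.44). Their r was -0.38 with C2 (rho = -0.34), -0.24 with C1qa (rho = -0.49) and 0.01 with C1qc (rho = -0.25). The part of these markers in the changes of C1q and Cfp was not tested.

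The share of probes detected, a sign of array or RNA quality, differed between the ISO and control hearts of a strain, and this difference went with that of C1qc (r = 0.64, rho = 0.47). It had r of 0.35 with C1qa (rho = 0.20), 0.30 with C1qb, -0.09 with C2, -0.04 with C4b and -0.28 with Cfp. Its part in the change of C1qc was not tested.

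The difference of C2 went with the markers of mesothelium, the cell layer that covers the heart (r = 0.65, rho = 0.49), with r = 0.48 without BXH-19/TyJ and AXB-19/PgnJ. Of these 9 markers 6 were detected on under 5% of the arrays, and their mean ran from 4.79 to 5.35 in control and reached 6.25 in ISO hearts. C4b and Cfb, the latter near background, went with hepatocyte markers (r = 0.47 and 0.46, rho = 0.40 and 0.33). Without C57BLKS/J and BXD56/RwwJ these r were 0.45 and 0.38. Over the 76 strains without doubtful slides and arrays they were 0.38 and 0.46. The mean of the hepatocyte list ran from 4.81 to 9.15 in control and from 4.68 to 10.09 in ISO hearts. Alb and Fgb of that list were detected on 0.481% and 0% of the arrays, while Apoa2 was detected on 95.2%. The part of either list in C2, C4b or Cfb was not tested.

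**Figure D5:**
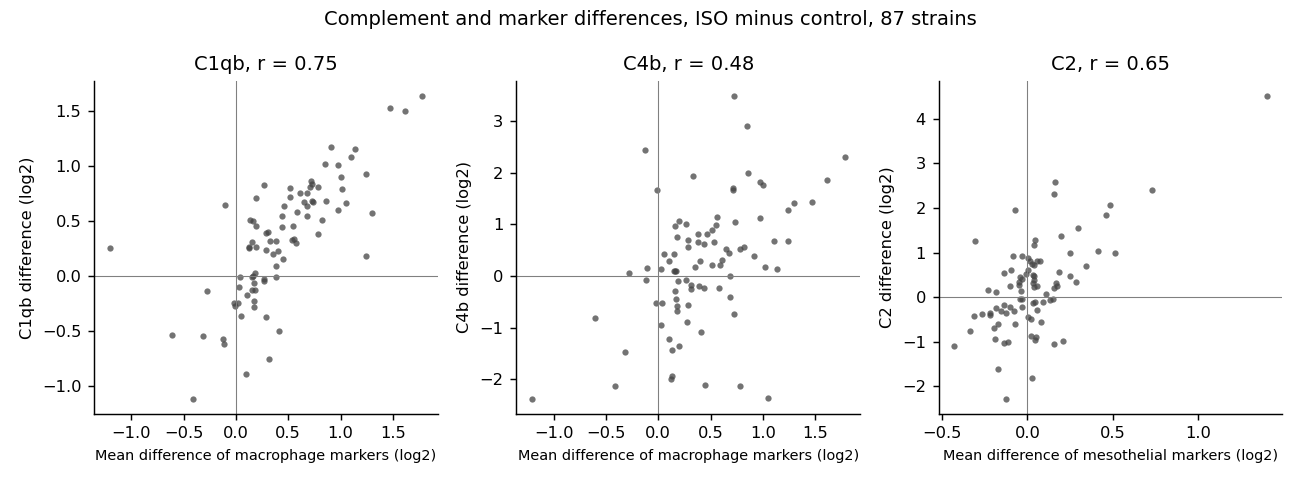
Difference between ISO and control hearts (log2) of C1qb, C4b and C2 (y axes) against the mean difference of macrophage or mesothelial markers (x axes) in 87 strains, each point being a strain. C1qb rises with the macrophage markers (r = 0.75), C4b does so with more scatter (r = 0.48), and C2 rises with the mesothelial markers (r = 0.65, and 0.48 without BXH-19/TyJ and AXB-19/PgnJ).

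Other genes of the pathway were taken from lists of 51 genes, of which 44 were measured. Each gene, like each cell marker above, was read only at its probe of the highest mean level. Several have more probes, which are not shown. Of these 3 rose and 0 fell, where 3.72% and 3.53% of all probes did, and the median log2 fold change was 0.02. A count of 3 of 44 is near that background. The 3 that rose are regulators: Serping1, the inhibitor of the C1 proteases, rose by 43.1% (0.52 on the log2 scale, SE 0.05, adjusted p-value = 4.81e-15, higher in 77 of 87 strains), Clu, which encodes clusterin and blocks the terminal complex, by 0.30 (log2, SE 0.05, adjusted p-value = 2.74e-06), and Cd55, which speeds the decay of the C3-cleaving enzymes on the cell surface, by 19.9% (0.26, SE 0.07, adjusted p-value = 0.00223). The other 12 measured regulators did not pass, among them Cd59a, a blocker of the terminal complex (0.08), Vtn (-0.0085) and Cd59b (0.14).

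Of 12 proteases and lectins 0 passed, with 3 of them detected on under 5% of the arrays. Fcna, a ficolin of macrophages, differed by 0.06 (SE 0.09), C1s1, the protease that C1q activates through C1r, by 0.16 (SE 0.06, adjusted p-value = 0.0709), and Masp2, a protease of the lectin pathway, by -0.22 (SE 0.10, adjusted p-value = 0.136). Of 7 genes of C4a and the terminal components 0 passed, C8b differing by -0.15 (SE 0.05, adjusted p-value = 0.023), under the fold threshold, C8g by -0.10 and C9 by 0.02. Of 10 receptors 0 passed, C1qbp differing by 0.0086, Cd93 by -0.13 and Vsig4, a receptor of C3 fragments on macrophages, by 0.25 (SE 0.09, adjusted p-value = 0.0585).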

How the data were processed

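LV RNA of pooled mice was hybridized to Illumina MouseRef-8 v2.0 BeadChips. The authors read the arrays with GenomeStudio 2010.3 (per the labels) and deposited raw probe intensity with a detection p-value for each array, and a table of log2 values, which the methods describe as background-corrected and quantile-normalized with neqc of limma. The deposited intensities of all 25697 gene probes were normalized here with neqc of limma 3.58.1 (offset 16) in R 4.3.3. The result matched the deposited log2 values in 208 of 208 columns (median absolute difference 0.00057).

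Repeat arrays were averaged per strain and condition. ISO and control were compared with strain as the pair in limma, families and classes on the differences of the strains, each adjusted by Benjamini-Hochberg over all probes. The strain is the same in both conditions, and control and ISO deviations of a strain correlated with a median r of 0.48 (over 0.1 in 80 of 87 strains). Nothing says that pools of a strain were raised apart, so p-values measure the spread between strains. The fits were tested on simulated data. Alternatives were the deposited values, no background correction, median scaling, detected probes only, unpaired fits, first arrays, pairs on the same BeadChip, BeadChip as a block, each set of BeadChips, exclusion of doubtful slides or arrays of low connectivity (under -2.5), no fold threshold, and classical or RI strains alone. Probes were named by the platform annotation at hand and RefSeq symbols (GRCm38.p6). Probes over sequence variants, which the methods leave out, were kept, and no probe sequence was used here. Named pathway genes were those called and, per list, up to 3 others of the highest mean level, and named similar genes were up to 3 of the highest r per component. The components and lists were chosen with earlier results of these data known.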

Additional observations from a re-analysis of the deposited data

Results flagged for a closer look

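In families of 4 to 10 strains, 4 of 42 groups of complement values held a strain far from the others by Dixon's criterion, which chance meets in about 1 in 20 groups. Among the 5 BXH strains the ISO level of C4b was 10.14 in BXH-19/TyJ and 7.02 to 7.82 in the others. Among the 4 BXH strains with both conditions the difference of Cfb was 0.34 in BXH-9/TyJ, on BeadChip 24, and -0.01 to 0.05 in the others. Among the 7 CXB strains the control level of C3ar1 was 5.61 in CXB-13/HiAJ and 4.42 to 4.69 in the others, and its difference there was -0.82 against -0.21 to 0.21. Cfb and C3ar1 lay near background on nearly all arrays.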

How the results depend on the processing

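Of the 7 complement probes 3 passed in ISO against control, and 1 passed in BeadChip set 1 alone (24 strains), 0 in set 3 alone (16 strains), also without BeadChip 24 (12 strains), and 5 without BeadChips 12, 19, 23 and 24, with or without BeadChip 25. Fewer strains were tested in single sets. In set 2 alone (52 strains) 4 passed. In the unpaired fits, without the strain as a block, 2 passed over the strains with both conditions and 3 over all strains. All probes called higher and lower were 957 and 906, against 449 and 334 without background correction, 275 and 276 in set 1, 4 and 2 in set 3, 84 and 62 there without BeadChip 24, 600 and 504 in classical strains alone, and 1722 and 2170 with no fold threshold. The sign turned in set 3 for C4b (-0.51, and -0.24 without BeadChip 24), Cfb (-0.033 and -0.075) and Cfp (-0.0099). C3ar1, at -0.0036, turned to 0.0022 without background correction, 0.00042 unpaired over all strains, 0.0069 in set 2 and 0.0018 in classical strains. For the control level across families 1 complement probe passed with median scaling and 0 in the other settings. There the probes called in all were 253, against 11286 with median scaling, 53 among detected probes, 1 with the set of BeadChips as a covariate, 1994 without the 4 slides and 572 without arrays of low connectivity, and the cause was not tested. For the response across families they were 0, against at most 28. The settings that leave out BeadChip 24 in set 3, BeadChips 19 and 24, or BeadChip 25, the slides together with arrays of low connectivity, and each strain in turn were chosen after seeing the data. Cfb and C3ar1 were limited by their signal over background.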
